A study of Mus musculus with 12 samples.

Results

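The phase II conjugation enzymes were taken as every gene of the deposited table whose symbol names a soluble glutathione S-transferase (Gsta, Gstk, Gstm, Gsto, Gstp, Gstt and Gstz), a microsomal glutathione S-transferase (Mgst), a UDP-glycosyltransferase (Ugt), a cytosolic sulfotransferase (Sult), the N-acetyltransferases Nat1, Nat2 and Nat8, or a glycine N-acyltransferase (Glyat). The symbols alone chose them, with no measured value, and 63 of 18803 genes matched: 22 Gst, 3 Mgst, 20 Ugt, 13 Sult, 3 Nat and 2 Glyat genes. Of these, 50 passed the filter on low counts and were tested, and 13 did not, each at no more than 0.8 FPKM (fragments scaled for transcript length and library total) in any library. The tested genes comprised 20 Gst, 3 Mgst, 16 Ugt, 7 Sult, 3 Nat and 1 Glyat gene.

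RNA was sequenced from whole kidney of male C57BL/6J mice 8 weeks old, in 12 libraries with 3 in each of 4 groups. The groups were conditional knockout of Wwp2 in the proximal tubule with UIR surgery (PTCKO UIR), the same knockout with sham surgery (PTCKO sham), floxed Wwp2 alleles without the knockout with UIR (WT UIR), and floxed alleles with sham (WT sham). Per the design text the study had 6 to 8 mice in a group. No label says which mouse gave which library, so a p-value here speaks of spread among libraries and that spread may be technical. The promoter driving the recombinase and the time from UIR to tissue collection are not given in the sources used here, and UIR is written as the labels give it. Floxed Wwp2 alleles are common to every group.

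Phase II enzymes attach a polar group to reactive or fat-soluble molecules so that they can leave the cell and be excreted in urine or bile. Glutathione S-transferases add glutathione, UDP-glycosyltransferases add a sugar such as glucuronic acid, sulfotransferases add sulfate from the donor PAPS, N-acetyltransferases add an acetyl group, and Glyat joins glycine to acyl-CoA to give compounds such as hippurate. In the kidney the proximal tubule is known as the main site of these reactions and of the onward processing of glutathione conjugates to mercapturates.

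Libraries held 15495163 to 19645743 expected counts, and replicates correlated at 0.982 to 0.989. The transcript of Wwp2, the targeted ubiquitin ligase, was not lower in libraries labelled PTCKO. Wwp2 stood at 22.28, 19.27 and 20.53 FPKM in PTCKO UIR, 15.62, 16.09 and 17.61 in PTCKO sham kidneys, 17.64, 19.15 and 17.91 in WT UIR, and 15.18, 15.69 and 17.11 in WT sham. Libraries labelled PTCKO stood above those labelled WT after UIR by a log2 fold change of 0.25 (SE 0.07, edgeR adjusted p = 0.037) and differed by -0.03 after sham (SE 0.07, edgeR adjusted p = 0.823). Counts over a whole gene in whole tissue could not show a deleted exon in 1 cell type, so every direction between genotypes below rests on the labels, and "PTCKO" means libraries labelled so. All 16 proximal tubule markers were detected in every group, and none was at 0. In the UIR libraries the macrophage and monocyte list summed to 3786 to 4918 FPKM in PTCKO and 5320 to 8125 FPKM in WT, against 80.4 to 107.4 FPKM in PTCKO sham and 85.9 to 106.4 FPKM in WT sham.

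The members' transcripts took a smaller share of the kidney transcriptome after UIR in both genotypes, and the classes lost unequal shares. The summed level of all 63 members was 2340, 2179 and 2622 FPKM in the 3 PTCKO UIR libraries, 5189, 4825 and 5233 FPKM in PTCKO sham kidneys, 1762, 2148 and 1729 FPKM in WT UIR, and 5890, 5552 and 5742 FPKM in WT sham. The 4 groups did not overlap, and WT UIR was lowest. The mean sum after UIR was 46.8% of the sham mean in PTCKO and 32.8% in WT. On TPM, which totals the same in each library, the mean sums were 4146 in PTCKO UIR and 8776 in PTCKO sham. They were 3412 in WT UIR and 9220 in WT sham.

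Ugt genes lost the most. Their sum averaged 351 ± 68.9 FPKM in PTCKO UIR and 1648 ± 104 FPKM in PTCKO sham kidneys, and 160 ± 51.8 FPKM in WT UIR and 1606 ± 187 FPKM in WT sham (SD, n = 3 each). That left 21.3% of the sham level in PTCKO and 9.99% in WT. Nat genes kept 27.9% in PTCKO and 10.9% in WT, and Glyat kept 32.6% and 14.8% in the same order. Gst genes kept 65.4% in PTCKO and 46.6% in WT, and Sult genes kept 53.7% in PTCKO and 50.6% in WT. The Mgst sum stood at 114% of sham in PTCKO and at 74.8% in WT. These sums come straight from FPKM. FPKM carries no correction for the change in RNA composition. The log2 fold changes below come from counts scaled by TMM, which is meant to correct for it, so their ratios between UIR and sham differ. TMM assumes that most genes do not change, while 73.8% of genes tested were called after UIR in PTCKO and 78.6% in WT. How well it corrected these data was not tested.

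**Figure D1:**
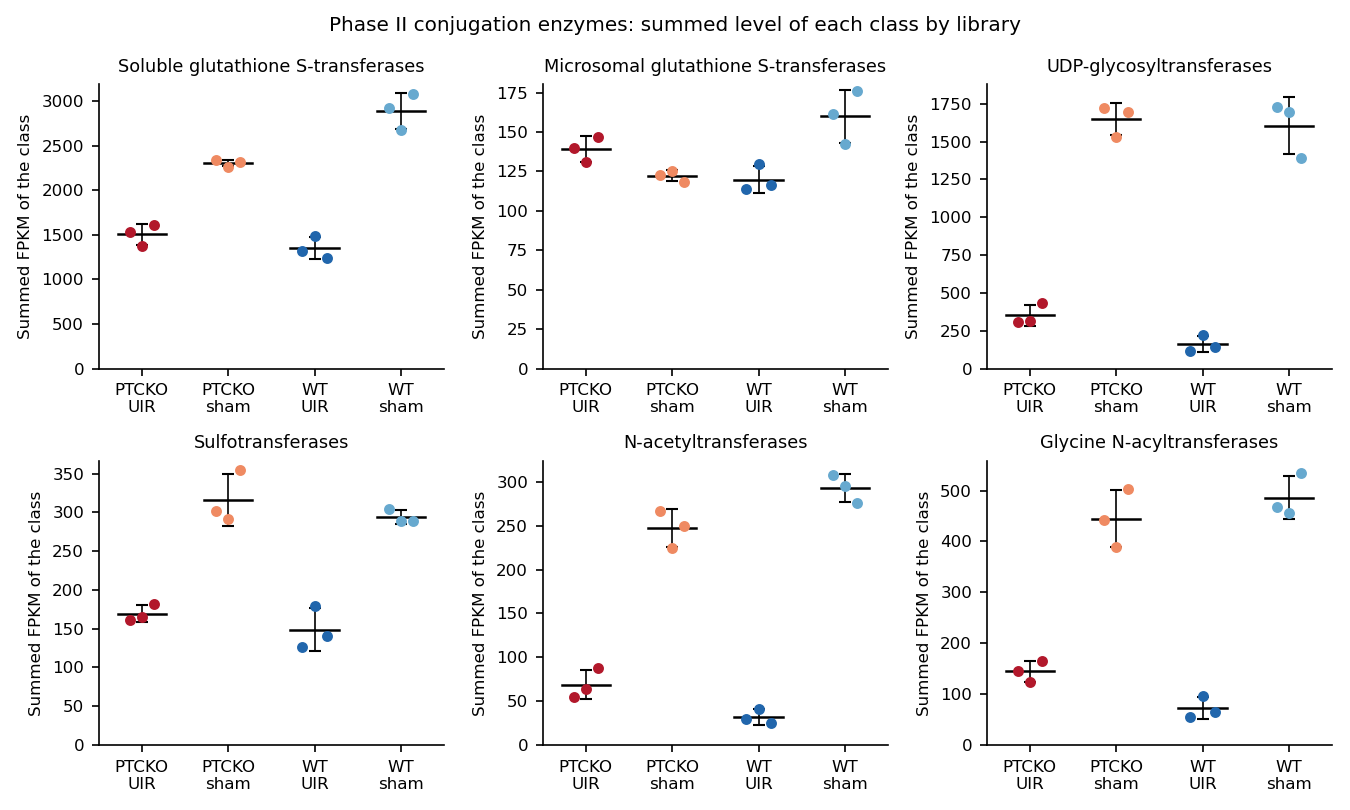
Summed FPKM of each class (y axis, linear from 0) in the 4 groups (x axis). Points are libraries, horizontal lines means and bars SD over 3 libraries. In the Ugt, Nat and Glyat panels every UIR library lies below every sham library, and every PTCKO UIR library lies above every WT UIR library.

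Short promoter stretches are shown for 5 glutathione S-transferase genes because the genes of this family are textbook targets of NRF2, which binds the antioxidant response element, and because their transcripts moved apart after UIR. Each is the RefSeq sequence of GRCm38.p6 up to the base before the gene's start, read 5′ to 3′ on the gene's own strand. Gsta3 is at chr1:21240335-21240564 (+), Gstm5 at chr3:107895604-107895853 (+) and Mgst1 at chr6:138140277-138140526 (+). Gstp1 is at chr19:4037913-4038162 (-) and Gstp2 at chr19:4042222-4042471 (-). Capitals mark TGACNNNGC, the core of the antioxidant response element, and TGANTCA, on either strand and with any base at N. TGANTCA is a loose pattern that takes in the site of AP-1 factors, so not every match need be such a site. The first is the motif in Gsta3 and Mgst1, the second in Gstp1 and Gstp2, and Gstm5 has TGANTCA followed by TGACNNNGC.
Gsta3: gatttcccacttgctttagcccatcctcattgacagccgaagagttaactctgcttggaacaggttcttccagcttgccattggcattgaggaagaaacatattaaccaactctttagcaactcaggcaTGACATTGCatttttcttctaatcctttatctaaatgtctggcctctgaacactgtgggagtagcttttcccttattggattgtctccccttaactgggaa
Gstm5: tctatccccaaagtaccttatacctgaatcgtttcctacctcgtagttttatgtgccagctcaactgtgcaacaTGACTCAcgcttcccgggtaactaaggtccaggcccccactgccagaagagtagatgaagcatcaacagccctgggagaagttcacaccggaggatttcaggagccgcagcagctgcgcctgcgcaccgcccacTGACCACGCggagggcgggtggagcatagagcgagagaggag
Mgst1: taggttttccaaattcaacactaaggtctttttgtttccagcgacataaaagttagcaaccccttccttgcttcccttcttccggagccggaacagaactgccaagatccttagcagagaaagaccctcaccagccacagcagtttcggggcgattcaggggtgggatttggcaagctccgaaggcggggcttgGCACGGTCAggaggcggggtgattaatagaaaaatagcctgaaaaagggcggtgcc
Gstp1: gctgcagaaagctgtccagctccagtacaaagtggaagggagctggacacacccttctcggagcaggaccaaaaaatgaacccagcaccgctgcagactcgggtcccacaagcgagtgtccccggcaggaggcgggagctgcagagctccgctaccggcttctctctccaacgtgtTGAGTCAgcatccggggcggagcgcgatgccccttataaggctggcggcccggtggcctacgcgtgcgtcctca
Gstp2: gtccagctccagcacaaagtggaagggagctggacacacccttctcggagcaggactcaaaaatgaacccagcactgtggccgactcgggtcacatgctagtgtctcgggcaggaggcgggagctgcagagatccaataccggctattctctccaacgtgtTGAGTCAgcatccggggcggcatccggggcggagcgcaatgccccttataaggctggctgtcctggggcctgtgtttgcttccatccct

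Promoter windows from 250 bases before to 50 after the start were held for 56 members. TGACNNNGC lay in windows of 4 of the 56 (Gsta3, Gstm5, Gstm7 and Mgst1), against 13.99% of 27025 genes. TNGCGTG, the core of the xenobiotic response element bound by the aryl hydrocarbon receptor, lay in 3 of the 56 (Gsta2, Sult1d1 and Ugt1a5), against 5.84% of genes. TGANTCA, which was added to the search after the Gstp windows had been read, lay in 14 of the 56, against 8.97% of genes. In log2 fold change the 3 tested genes with a printed TGACNNNGC match did not move as one after UIR: Gsta3 differed by -2.81 in PTCKO and -4.16 in WT, Gstm5 by 0.09 and -0.61 and Mgst1 by -0.01 and -0.70 in the same order. The printed stretches of Gstp1 and Gstp2 are identical at 207 of 250 aligned bases (82.8%). On the log2 scale Gstp1 differed by -1.14 in PTCKO and -2.20 in WT, and Gstp2 by -1.70 and -2.75. Gstp2 shares 49.12% of its 50-base transcript words with Gstp1, so reads could be divided between them by estimate. The part of read division or of the promoters in these 2 falls was not tested.

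After UIR most members fell in both genotypes. In PTCKO 9 members rose, 30 fell and 11 were not called at an edgeR adjusted p under 0.05, where 73.8% of all 15322 genes tested were called, 39.0% rising and 34.8% falling. In WT 10 members rose, 36 fell and 4 were not called, where 78.6% of all genes were called, 42.1% rising and 36.4% falling. The members' median log2 fold change was -1.03 in PTCKO and -1.77 in WT, beside 0.06 and 0.11 for all genes tested. Without scaling factors these medians over all genes were 0.58 and 0.82, the members' medians were -0.52 and -1.05, 13 members rose and 24 fell in PTCKO, and 10 rose and 30 fell in WT. Rising genes made up 77.2% of all calls in PTCKO and 78.7% in WT without scaling, against 52.8% and 53.6% with TMM. The comparisons in the 2 genotypes share no library: 30 members fell and 9 rose in both, 6 fell with a call in WT alone, Gstm7 rose with a call in WT alone (0.54, lost without WT UIR 1, WT UIR 2, WT sham 1 or WT sham 2 at 0.37 to 0.49), and none was called in opposite directions. Called members had overlapping FPKM between UIR and sham libraries in 6 cases in PTCKO and 7 in WT. The same share over all called genes was not counted, nor were the joint counts of the 2 genotypes over all genes tested. Whether either was particular to the members cannot be told.

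The fall ran beside that of the proximal tubule markers. All 16 of these fell in each genotype, with a median log2 fold change of -3.07 in PTCKO and -4.51 in WT, and their summed level was 1497 to 2347 FPKM in PTCKO UIR, 9487 to 10976 FPKM in PTCKO sham, 484 to 1006 FPKM in WT UIR and 11271 to 11994 FPKM in WT sham. In PTCKO 5 members and in WT 4 members fell by more than that median. In whole tissue, fewer proximal tubule cells and less RNA per cell cannot be told apart, and the part of these markers in the members' values was not tested. Markers of other tubule segments had negative medians as well. In PTCKO and WT these were -1.85 and -2.63 for the distal convoluted tubule and -1.92 and -2.37 for the collecting duct principal cell. They were -2.07 and -1.53 for the thick ascending limb and -0.374 and -0.265 for the intercalated cell. The part of these lists was not tested either.

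Among the alpha class, whose enzymes are known for reducing lipid peroxides, all 4 tested genes fell in both genotypes with TMM scaling, Gsta1 insecurely. Gsta2 (chromosome 9, 78331018 to 78347192) showed the largest difference of any named member between the UIR groups. Gsta2 stood at 145.58, 141.88 and 157.73 FPKM in PTCKO UIR, 333.72, 285.22 and 376.58 in PTCKO sham kidneys, 26.31, 49.93 and 32.19 in WT UIR, and 625, 456 and 492.22 in WT sham. None of the 4 groups overlapped. Its log2 fold change for UIR was -1.67 in PTCKO (SE 0.20, edgeR adjusted p = 5.34e-06) and -4.56 in WT (SE 0.23, edgeR adjusted p = 7.9e-10). Gsta1 shares 46.63% of its 50-base transcript words with Gsta2, so reads could be divided between them by estimate; it reached 3.95 FPKM at most. Its falls (log2 fold change -2.17 in PTCKO and -3.11 in WT) were no longer called without scaling (edgeR adjusted p = 0.0853 and 0.0717) or with limma on FPKM or TPM (-1.27 to -0.74 in PTCKO and -1.18 to -0.52 in WT). The PTCKO call was also lost without any 1 PTCKO UIR library (-2.31 to -1.97) or PTCKO sham 3 (-1.24). The WT call was also lost without WT UIR 1 (-2.53), WT UIR 3 (-3.11) or WT sham 3 (-1.39), and the WT value was -4.17 without WT UIR 2 and -3.71 without WT sham 1. Gsta3, which is known in mice for detoxifying aflatoxin epoxide, averaged 19.5 FPKM in PTCKO UIR and 95.7 in PTCKO sham kidneys, and 12.4 in WT UIR and 134 in WT sham.

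The pi class split. Gstp1 (chromosome 19, 4035411 to 4037912), an abundant transferase in most tissues, stood at 256.25, 222 and 277.88 FPKM in PTCKO UIR, 426.33, 371.12 and 370.61 in PTCKO sham kidneys, 206.68, 223.74 and 221.48 in WT UIR, and 611.61, 584.42 and 630.87 in WT sham. UIR and sham libraries did not overlap in either genotype, while the UIR groups overlapped each other. Its log2 fold change was -1.14 in PTCKO (SE 0.12, edgeR adjusted p = 9.73e-07) and -2.20 in WT (SE 0.12, edgeR adjusted p = 1.48e-09). Gstp3, the third pi gene of the mouse, went the other way, at 5.95, 4.68 and 6.35 FPKM in PTCKO UIR and 0.7, 0.19 and 0.85 in PTCKO sham, and at 2.45, 3.14 and 2.52 in WT UIR and 0.54, 0.83 and 0.89 in WT sham. Gstp3 rose by a log2 fold change of 2.70 in PTCKO (SE 0.33) and 1.21 in WT (SE 0.34), and shares no 50-base word with the other members. Gstp2 averaged 4.10 ± 1.34 FPKM in PTCKO UIR and 9.42 ± 1.75 in PTCKO sham kidneys, and 4.52 ± 0.845 in WT UIR and 18.6 ± 4.38 in WT sham. Gstp2 shares 49.12% of its words with Gstp1, so its level is uncertain.

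The mu class, a cluster of transferases on chromosome 3, held both risers and fallers. Gstm1 (108012250 to 108017973), the most abundant mu gene, averaged 340 ± 9.16 FPKM in PTCKO UIR and 584 ± 50.3 in PTCKO sham kidneys, and 390 ± 85.9 in WT UIR and 616 ± 58.2 in WT sham (SD, n = 3 each). Its log2 fold change was -1.30 in PTCKO and -1.38 in WT (edgeR adjusted p = 2.98e-06 and 1.3e-06). Gstm6 (107938847 to 107953641) rose, standing at 11.24, 11.97 and 10.58 FPKM in PTCKO UIR and 1.27, 1.08 and 1.93 in PTCKO sham, and at 15.48, 13.76 and 13.07 in WT UIR and 1.14, 1.69 and 1.95 in WT sham. Gstm6 had the same size of change in both genotypes, with log2 fold changes of 2.41 (SE 0.21) in PTCKO and 2.47 (SE 0.21) in WT, and no overlap between UIR and sham.

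Gstm2 (107981702 to 107986420) also rose, at 104.79, 89.64 and 97.75 FPKM in PTCKO UIR and 48.89, 61.81 and 52.14 in PTCKO sham, and at 133.93, 136.96 and 150.23 in WT UIR and 46.88, 48.81 and 60.28 in WT sham. Its log2 fold change was 0.33 in PTCKO (SE 0.12, edgeR adjusted p = 0.026) and 0.72 in WT (SE 0.12, edgeR adjusted p = 0.000113). The PTCKO call was lost without PTCKO UIR 1, PTCKO UIR 3, PTCKO sham 1 or PTCKO sham 3 (0.27 to 0.30). Gstm5 averaged 203 ± 36.2 FPKM in PTCKO UIR and 134 ± 6.09 in PTCKO sham kidneys, and 170 ± 21.1 in WT UIR and 158 ± 28.6 in WT sham, with overlap in WT alone. Gstm5 fell by 0.61 in WT with TMM scaling (SE 0.16, edgeR adjusted p = 0.00372), but the value was 0.10 without scaling and 0.28 on TPM, another unit scaled for length and library total, so its direction in WT depended on the scaling.

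Gstz1 (chromosome 12, 87147161 to 87164723), the maleylacetoacetate isomerase of tyrosine breakdown, fell in both genotypes. Gstz1 stood at 62.48, 57.91 and 80.27 FPKM in PTCKO UIR, 268.92, 270.77 and 280.08 in PTCKO sham kidneys, 37.05, 48.4 and 37.79 in WT UIR, and 280.79, 269.13 and 293.62 in WT sham. UIR libraries lay below all sham libraries and the UIR groups did not overlap. Its log2 fold change was -2.54 in PTCKO (SE 0.14, edgeR adjusted p = 3.78e-09) and -3.48 in WT (SE 0.15, edgeR adjusted p = 2.67e-10). Gstk1, the peroxisomal and mitochondrial kappa form, fell in both genotypes (-2.13 in PTCKO and -2.73 in WT). Gstt1 to Gstt3, the theta forms, also fell, with log2 fold changes of -1.77 to -0.56 in PTCKO and -2.72 to -1.24 in WT. The PTCKO call of Gstt1 (-0.56) was lost without scaling (-0.05, edgeR adjusted p = 0.69), with limma on FPKM (-0.03) and on TPM (-0.02), and its UIR and sham libraries overlapped. Gsto1, the omega form that reduces dehydroascorbate, rose by a log2 fold change of 1.14 in PTCKO and 0.51 in WT, and stood at 80.87 to 105 FPKM in PTCKO UIR and 27.8 to 33.28 in PTCKO sham kidneys, and 74.69 to 90.93 in WT UIR and 31.92 to 38.16 in WT sham.

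Microsomal transferases are membrane proteins that add glutathione or act as glutathione peroxidases. Mgst1 (chromosome 6, 138140527 to 138156755) stood at 82.7, 84.29 and 84.19 FPKM in PTCKO UIR, 65.45, 52.85 and 59.1 in PTCKO sham kidneys, 78.29, 84.45 and 75.92 in WT UIR, and 79.41, 74.99 and 82.2 in WT sham. The PTCKO sham libraries were below the other 9, which lay between 74.99 and 84.45 FPKM. With TMM scaling Mgst1 fell in WT (log2 fold change -0.70, SE 0.09, edgeR adjusted p = 8.49e-06) and did not pass the test in PTCKO (-0.01, SE 0.09, edgeR adjusted p = 0.899), while without scaling the values were 0.01 in WT and a called 0.50 in PTCKO, so its direction after UIR depended on the scaling. Mgst3, which can also make leukotriene C4, averaged 54.0 ± 7.43 FPKM in PTCKO UIR and 63.1 ± 8.30 in PTCKO sham kidneys, and 39.0 ± 4.53 in WT UIR and 80.9 ± 13.1 in WT sham. Mgst3 fell in both (-0.73 in PTCKO and -1.77 in WT), and the PTCKO call was lost without scaling (-0.22, edgeR adjusted p = 0.16).

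Mgst2, the other leukotriene C4-forming member, was near the detection limit after sham. It gave 16, 10 and 30 counts in PTCKO UIR and 0, 0 and 2 in PTCKO sham kidneys, and 9, 12 and 11 in WT UIR and 2, 1 and 2 in WT sham. The summed counts gave a scaled ratio of UIR to sham of 17.3 (exact 95% interval 4.56 to 146) in PTCKO and 3.5 (1.35 to 11.5) in WT, for counting error only. Mgst2 was called in both genotypes with edgeR (adjusted p = 0.00052 in PTCKO and 0.0398 in WT). The WT call was lost with DESeq2 (adjusted p = 0.0558) and without PTCKO UIR 1, WT UIR 2, WT UIR 3 or any 1 of the 3 WT sham libraries (log2 fold change 1.5 to 1.91), and the PTCKO value was 7.00 without PTCKO sham 3.

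**Figure D2:**
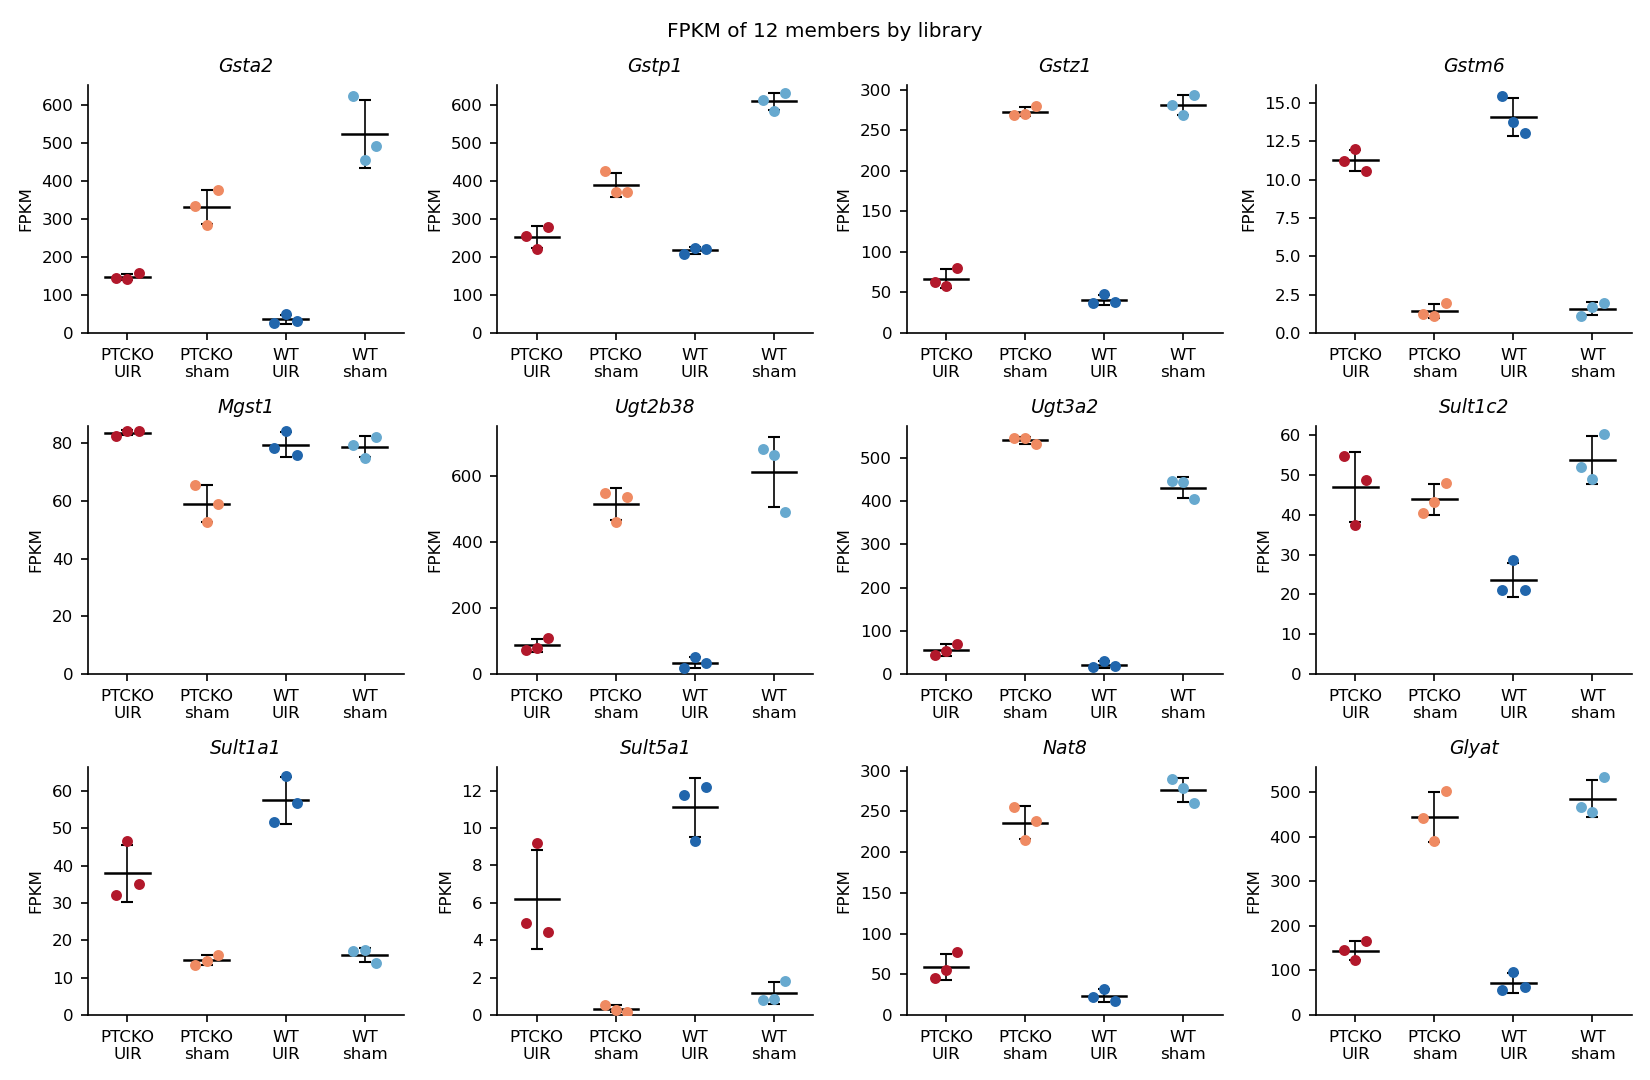
FPKM (y axis, linear from 0) of 12 members in the 4 groups (x axis). Points are libraries, horizontal lines means and bars SD over 3 libraries. Gstm6, Sult1a1 and Sult5a1 are higher in every UIR library than in every sham library, Gsta2, Gstz1, Ugt2b38, Ugt3a2, Nat8 and Glyat are lower in every UIR library, and in each of those 6 the PTCKO UIR points lie above the WT UIR points.

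No Ugt gene rose with a call in either genotype: 9 of 16 fell in PTCKO and 12 of 16 in WT. The largest falls of all members were here. Ugt3a2 (chromosome 15, 9335551 to 9370955), whose human counterpart adds glucose or xylose, stood at 44.79, 52.62 and 70.26 FPKM in PTCKO UIR, 545.67, 545.43 and 532.42 in PTCKO sham kidneys, 15.7, 30.8 and 18.64 in WT UIR, and 446.98, 443.6 and 404.8 in WT sham. No groups overlapped, and its log2 fold change was -3.78 in PTCKO (SE 0.24, edgeR adjusted p = 1.01e-08) and -5.02 in WT (SE 0.25, edgeR adjusted p = 8.46e-10). Ugt3a1, whose human counterpart adds N-acetylglucosamine, averaged 9.94 ± 3.95 FPKM in PTCKO UIR and 139 ± 5.25 in PTCKO sham kidneys, and 4.30 ± 1.08 in WT UIR and 105 ± 4.14 in WT sham. Its log2 fold changes of -4.35 in PTCKO and -5.30 in WT were the lowest among the 50 tested members.

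Ugt2b genes encode glucuronidating enzymes clustered on chromosome 5. Ugt2b38 (87409939 to 87424203) stood at 72.98, 77.75 and 109.41 FPKM in PTCKO UIR, 550.11, 462.33 and 535.97 in PTCKO sham kidneys, 17.66, 52.59 and 32.8 in WT UIR, and 683.53, 665.2 and 491.82 in WT sham. The UIR groups did not overlap each other, and the sham groups did. Ugt2b38 fell, with log2 fold changes of -3.08 in PTCKO (SE 0.32) and -4.86 in WT (SE 0.35) and edgeR adjusted p = 1.17e-06 and 2.03e-08. Ugt2b37 (87240492 to 87254788) held its level better, at 106.75, 112.82 and 162.68 FPKM in PTCKO UIR and 146.87, 99.49 and 144.52 in PTCKO sham, and at 46.87, 79.73 and 46.25 in WT UIR and 129.24, 143.02 and 77.13 in WT sham. UIR and sham libraries overlapped in both genotypes, and its log2 fold change was -0.54 in PTCKO (SE 0.26, edgeR adjusted p = 0.0788) and -1.72 in WT (SE 0.27, edgeR adjusted p = 5.6e-05). Ugt2b37 therefore made up 36.1% of the class in PTCKO UIR and 36.0% in WT UIR, against 7.86% in PTCKO sham and 7.15% in WT sham. Ugt2b38 shares 37.4% of its 50-base words with other members and Ugt2b37 18.32%, most of it with Ugt2b5 (34.15% and 15.23%), so the reads assigned to each are in part an estimate. Ugt8a, which makes the lipid galactosylceramide, fell in both genotypes (-2.23 in PTCKO and -2.73 in WT).

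The Ugt1a genes share their last exons, and 52.08% to 79.84% of their 50-base words occur in another member. Ugt1a7c was the highest of them in each library, with 49.4% to 96.6% of their sum, and stood at 30.09, 43.38 and 47.15 FPKM in PTCKO UIR, 304.38, 241.33 and 294.42 in PTCKO sham kidneys, 21.11, 29.51 and 16.35 in WT UIR, and 308, 277.74 and 226.5 in WT sham. UIR lay far below sham in both genotypes, with a log2 fold change of -3.31 in PTCKO (SE 0.23, edgeR adjusted p = 2.12e-08) and -4.31 in WT (SE 0.24, edgeR adjusted p = 1.77e-09). In 3 groups the library lowest in Ugt1a7c was the one highest in Ugt1a6b. Ugt1a6b stood at 20.79 FPKM in PTCKO UIR 1 against 4.69 and 6.67 in the other PTCKO UIR libraries, at 12.74 in WT UIR 3 against 2.5 and 2.52, and at 56.94 in WT sham 3 against 21.73 and 19.44. It took 34.8%, 38.5% and 19.9% of the summed Ugt1a level in those 3 libraries and 2.7% to 12.0% in the other 9. The sum over the 8 Ugt1a genes varied less, at 49.3 to 59.7 FPKM in PTCKO UIR, 253 to 315 in PTCKO sham, 25.3 to 33.6 in WT UIR and 286 to 333 in WT sham. How far estimated read division set this pattern was not tested.

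**Figure D3:**
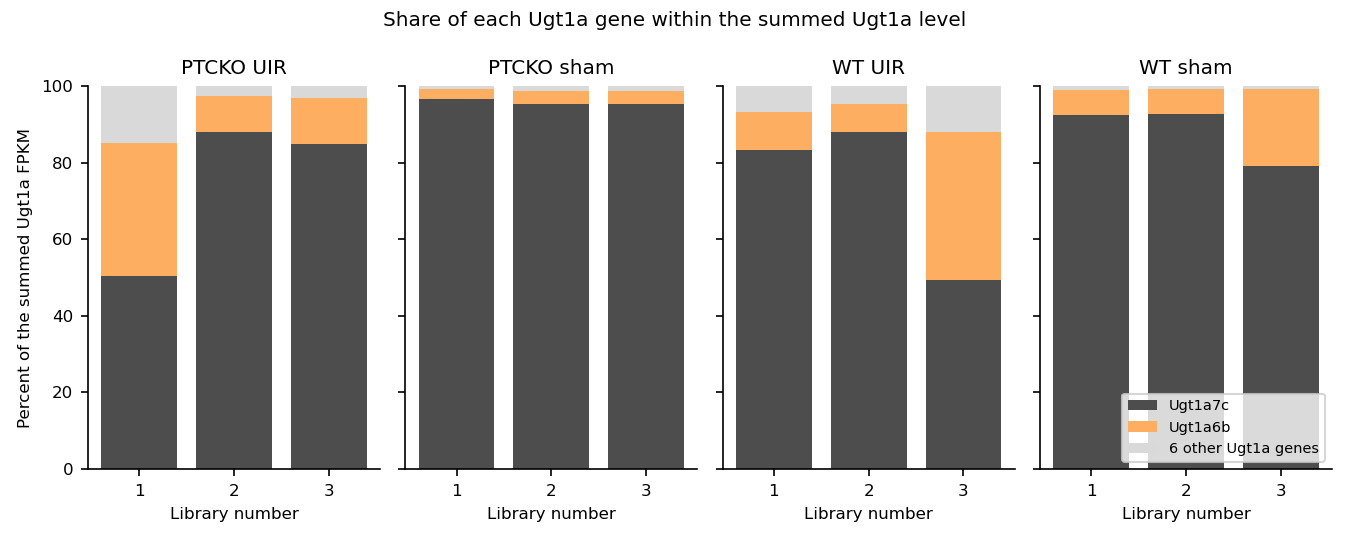
Percent of the summed Ugt1a FPKM (y axis, 0 to 100) held by Ugt1a7c, Ugt1a6b and the 6 other Ugt1a genes, 1 bar per library (x axis, library number within its group). PTCKO UIR 1, WT UIR 3 and WT sham 3 stand out with 34.8%, 38.5% and 19.9% for Ugt1a6b.

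The sulfotransferases split in the same way in both genotypes, with Sult1a1, Sult2b1, Sult4a1 and Sult5a1 rising and Sult1b1, Sult1c2 and Sult1d1 falling. Sult1d1 (chromosome 5, 87554650 to 87569006), which sulfates catecholamines in the mouse, had the highest mean over all libraries and stood at 71.0 ± 12.3 FPKM in PTCKO UIR and 253 ± 29.2 in PTCKO sham kidneys, and 50.8 ± 18.2 in WT UIR and 218 ± 11.9 in WT sham. In WT UIR it was below Sult1a1. Its log2 fold change was -2.34 in PTCKO and -2.81 in WT (edgeR adjusted p = 3.93e-07 and 5.47e-08). Sult1a1 (chromosome 7, 126672865 to 126690443), the phenol sulfotransferase, stood at 32.19, 46.46 and 35.05 FPKM in PTCKO UIR and 13.43, 14.5 and 16.1 in PTCKO sham, and at 51.59, 63.96 and 56.73 in WT UIR and 17.05, 17.45 and 13.99 in WT sham. UIR and sham did not overlap, and Sult1a1 rose by 0.86 in PTCKO (SE 0.13, edgeR adjusted p = 4.29e-05) and 1.11 in WT (SE 0.13, edgeR adjusted p = 2.59e-06). Sult1a1 made up 22.4% of the class sum in PTCKO UIR and 4.66% in PTCKO sham kidneys, and 39.0% in WT UIR and 5.50% in WT sham.

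Sult1c2 (chromosome 17, 53829637 to 53845958) stood at 54.87, 37.45 and 48.74 FPKM in PTCKO UIR, 40.35, 43.11 and 48.06 in PTCKO sham kidneys, 21.14, 28.59 and 21.13 in WT UIR, and 51.98, 48.93 and 60.36 in WT sham. WT UIR was the lowest group, below the other 9 libraries. In WT Sult1c2 fell by 1.90 (SE 0.16, edgeR adjusted p = 1.29e-07). In PTCKO it fell by 0.41 (SE 0.16, edgeR adjusted p = 0.0302) with TMM scaling, the libraries overlapped, the value without scaling was 0.10, and the call was lost without PTCKO UIR 2 (-0.25) or PTCKO sham 3 (-0.35).

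Sult5a1 (chromosome 8, 123142843 to 123158914) stood at 4.92, 9.2 and 4.42 FPKM in PTCKO UIR, 0.53, 0.28 and 0.18 in PTCKO sham kidneys, 11.79, 9.32 and 12.21 in WT UIR, and 0.8, 0.88 and 1.84 in WT sham. No groups overlapped, and Sult5a1 rose by 3.72 in PTCKO (SE 0.45) and 2.51 in WT (SE 0.35), with edgeR adjusted p = 5.53e-06 and 1.73e-05. Sult2b1, which sulfates cholesterol and pregnenolone, averaged 4.08 ± 0.436 FPKM in PTCKO UIR and 0.467 ± 0.271 in PTCKO sham kidneys, and 3.78 ± 0.249 in WT UIR and 0.433 ± 0.241 in WT sham, a rise of 2.63 and 2.46 on the log2 scale. Sult4a1, best known from brain, gave 43, 39 and 96 counts in PTCKO UIR and 1 in each PTCKO sham library, and 30, 24 and 18 in WT UIR and 2, 0 and 1 in WT sham. The scaled ratio of its summed counts was 36.6 (exact 95% interval 12.3 to 179) in PTCKO and 13.1 (4.31 to 65.1) in WT, and its edgeR log2 fold change in WT was 3.59, or 4.47 without WT sham 1.

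All 3 N-acetyltransferases and Glyat fell in both genotypes, Nat1 from a low level. Nat1 was at 0.97 FPKM at most in any library. It averaged 0.217 FPKM in PTCKO UIR and 0.63 in PTCKO sham kidneys, and 0.143 in WT UIR and 0.417 in WT sham. Nat8 (chromosome 6, 85830387 to 85836857) makes the mercapturates by acetylating cysteine conjugates. It stood at 45.5, 55.16 and 76.81 FPKM in PTCKO UIR, 254.81, 214.4 and 238.63 in PTCKO sham kidneys, 22.22, 32.17 and 17.15 in WT UIR, and 289.87, 278.66 and 260.52 in WT sham. No groups overlapped, and Nat8 had log2 fold changes of -2.50 in PTCKO (SE 0.22, edgeR adjusted p = 1.95e-07) and -4.23 in WT (SE 0.23, edgeR adjusted p = 1.79e-09). Nat2 (chromosome 8, 67494875 to 67502644), an arylamine N-acetyltransferase, averaged 9.52 ± 0.713 FPKM in PTCKO UIR and 10.7 ± 0.676 in PTCKO sham kidneys, and 7.94 ± 0.982 in WT UIR and 16.7 ± 1.46 in WT sham. Nat2 fell in both (-0.72 in PTCKO and -1.77 in WT), and the PTCKO call was lost without scaling (-0.21, edgeR adjusted p = 0.112). Glyat (chromosome 19, 12633308 to 12651737) stood at 145.6, 123.26 and 165.35 FPKM in PTCKO UIR, 441.68, 390.04 and 502.14 in PTCKO sham kidneys, 55.34, 96.62 and 63.85 in WT UIR, and 468.02, 455.48 and 533.75 in WT sham. UIR libraries were below sham libraries throughout, the UIR groups did not overlap, and the log2 fold change was -2.13 in PTCKO (SE 0.20, edgeR adjusted p = 4.44e-07) and -3.47 in WT (SE 0.21, edgeR adjusted p = 4.32e-09).

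**Figure D4:**
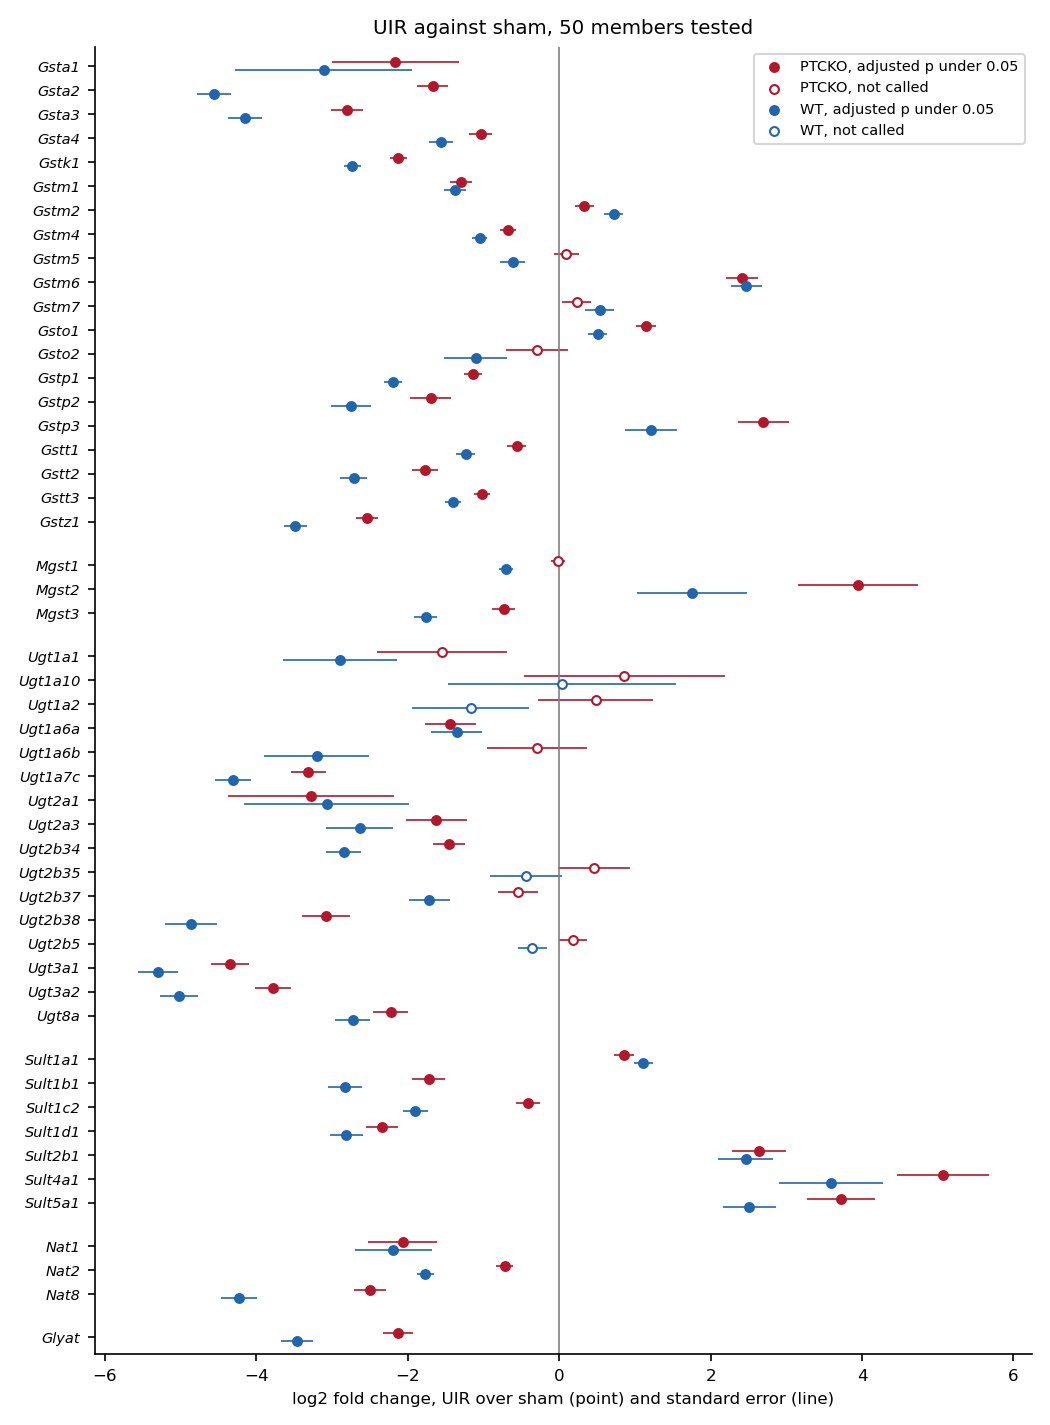
Log2 fold change of UIR over sham (x axis) for the 50 tested members, ordered by class from Gst to Glyat (y axis), in PTCKO (red) and WT (blue). Points are edgeR estimates, lines their SE, and filled points passed an adjusted p under 0.05. Blue points lie left of red points for most fallers, with Ugt3a1 lowest at -4.35 in PTCKO and -5.30 in WT.

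Between genotypes after UIR, members were more often higher in libraries labelled PTCKO. At an edgeR adjusted p under 0.05, 17 members were higher, 2 were lower and 31 were not called, where 13.8% of all genes tested were called, 9.30% higher and 4.50% lower. The higher members were 5 Gst, 1 Mgst, 7 Ugt, 2 Sult, 1 Nat and 1 Glyat genes, and the median log2 fold change over the 50 was 0.55, beside 0.01 for all genes. Without scaling 16 were higher and 3 lower, and higher genes made up 56.1% of all calls, against 67.4% with TMM. None of the 19 called members had overlapping FPKM between the groups. The share of all called genes without overlap was not counted, so whether this was particular to the members cannot be told. This comparison shares the WT UIR libraries with UIR against sham in WT, where 14 of the 17 fell, Gstp3 and Sult4a1 rose, and Ugt2b5 was not called. The number of higher members was 11 without PTCKO UIR 3, 10 without WT UIR 1 and 11 without WT UIR 3. Calls over all genes, in either direction, went from 2115 to 904, 989 and 1230 in the same order. Of the proximal tubule markers 15 of 16 were higher in PTCKO and none lower, with a median of 1.32, and their part in the members' values was not tested. Of the principal cell markers 4 of 7 were higher and none lower (median 0.70). Of the distal convoluted tubule markers 2 of 6 were higher and none lower (median 0.60). The median was -0.05 for the thick ascending limb and -0.31 for the intercalated cell.

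Gsta2 was higher by a log2 fold change of 2.10 (SE 0.21, edgeR adjusted p = 0.000362), the highest of the 17. Ugt3a2 was higher by 1.44 (SE 0.22, edgeR adjusted p = 0.00161), Ugt2b38 by 1.41 (SE 0.30, edgeR adjusted p = 0.00858) and Nat8 by 1.38 (SE 0.21, edgeR adjusted p = 0.00174). Ugt3a1 was higher by 1.27, Ugt2b34 by 1.17, Glyat by 1.08, Sult1c2 by 1.06, Gstt2 by 0.92 and Gstz1 by 0.78, each with every PTCKO UIR library above every WT UIR library.

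Some genotype calls after UIR were lost when 1 library was left out, in several cases with little change in the log2 fold change. Some of the libraries left out were sham libraries, which are not part of this comparison. Gstp3 (1.11, edgeR adjusted p = 0.0147) lost its call without PTCKO UIR 3 (0.99), WT UIR 1 (1.07) or WT UIR 3 (1.08). Mgst3 (0.54, edgeR adjusted p = 0.0359) lost it without PTCKO UIR 1, PTCKO UIR 3, WT UIR 1, WT UIR 3 or WT sham 1 (0.44 to 0.57). Sult4a1 (1.43, edgeR adjusted p = 0.0192) lost it without PTCKO UIR 3 (0.94) or any 1 WT UIR library (1.36 to 1.59). Ugt1a7c (0.92, edgeR adjusted p = 0.0124) lost it without PTCKO UIR 3 (0.77), WT UIR 1 (0.89) or WT UIR 3 (0.77), and Ugt2b37 (1.22, edgeR adjusted p = 0.00957) without WT UIR 1 (1.10). Gsta3 (0.73, edgeR adjusted p = 0.0373) and Ugt2b5 (0.63, edgeR adjusted p = 0.0375) each lost it without PTCKO UIR 1, PTCKO UIR 3, PTCKO sham 3, WT UIR 1, WT UIR 3 or WT sham 1 (0.52 to 0.78 for Gsta3 and 0.52 to 0.67 for Ugt2b5). The 2 lower members, Gstm2 and Sult1a1, were ones that rose after UIR. Gstm2 (-0.46, edgeR adjusted p = 0.024) lost its call without PTCKO UIR 2, PTCKO UIR 3, WT UIR 1 or WT UIR 3 (-0.49 to -0.36), and Sult1a1 (-0.52, edgeR adjusted p = 0.0143) lost it without PTCKO UIR 1 (-0.41) or PTCKO UIR 3 (-0.47).

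After sham surgery no member was called higher in PTCKO with edgeR, 8 were called lower and 42 were not called, where 10.7% of all genes tested were called, 5.23% higher and 5.50% lower. At an unadjusted p under 0.05 the numbers were 0 higher and 16 lower, and DESeq2 called 0 higher and 11 lower. Without scaling 0 were higher and 6 lower, while higher genes made up 84.4% of all calls, against 48.8% with TMM. The 8 were Gsta2, Gstk1, Gstp1, Gstp2, Gstt1, Mgst1, Nat2 and Sult5a1, so that 5 of 20 soluble glutathione S-transferases and none of 16 Ugt genes were among them. The proximal tubule markers did not go down with them: 1 of 16 was lower, the median was 0.05, and their part in the members' values was not tested. The count of lower members ranged from 3 to 13 when 1 library was left out, with 3 without PTCKO sham 2 or WT sham 3, 4 without PTCKO sham 1, PTCKO sham 3 or WT sham 1, and 13 without PTCKO UIR 2. Calls over all genes, 1645 with every library, were 524 without PTCKO sham 2, 430 without WT sham 3 and 2183 without PTCKO UIR 2. They were 504, 653 and 753 without PTCKO sham 1, PTCKO sham 3 and WT sham 1.

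Gstp1 was lower (log2 fold change -0.77, SE 0.11, edgeR adjusted p = 0.00448), at 371 to 426 FPKM in PTCKO sham against 584 to 631 FPKM in WT sham. Nat2 was lower (-0.72, SE 0.11, edgeR adjusted p = 0.0059), at 10.08 to 11.43 FPKM in PTCKO sham against 15.43 to 18.3 FPKM in WT sham. Mgst1 was lower (-0.54, SE 0.09, edgeR adjusted p = 0.00804), at 52.85 to 65.45 FPKM in PTCKO sham against 74.99 to 82.2 FPKM in WT sham. These 3 kept their calls whichever single library was left out. Gsta2 (-0.78, edgeR adjusted p = 0.0298) lost its call without any 1 PTCKO sham library, WT sham 1 or WT sham 3 (-0.87 to -0.64). Gstp2 (-1.11, edgeR adjusted p = 0.0194) lost it without PTCKO sham 2, PTCKO sham 3, WT sham 1 or WT sham 3 (-1.10 to -0.94). Sult5a1 (-1.98, edgeR adjusted p = 0.0373), which was at 1.84 FPKM at most in sham libraries, lost it without any 1 PTCKO sham library, WT UIR 1 or WT sham 3 (-2.48 to -1.48). Gstk1 (-0.35) and Gstt1 (-0.47), with overlapping libraries, also lost their calls when single libraries were left out.

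**Figure D5:**
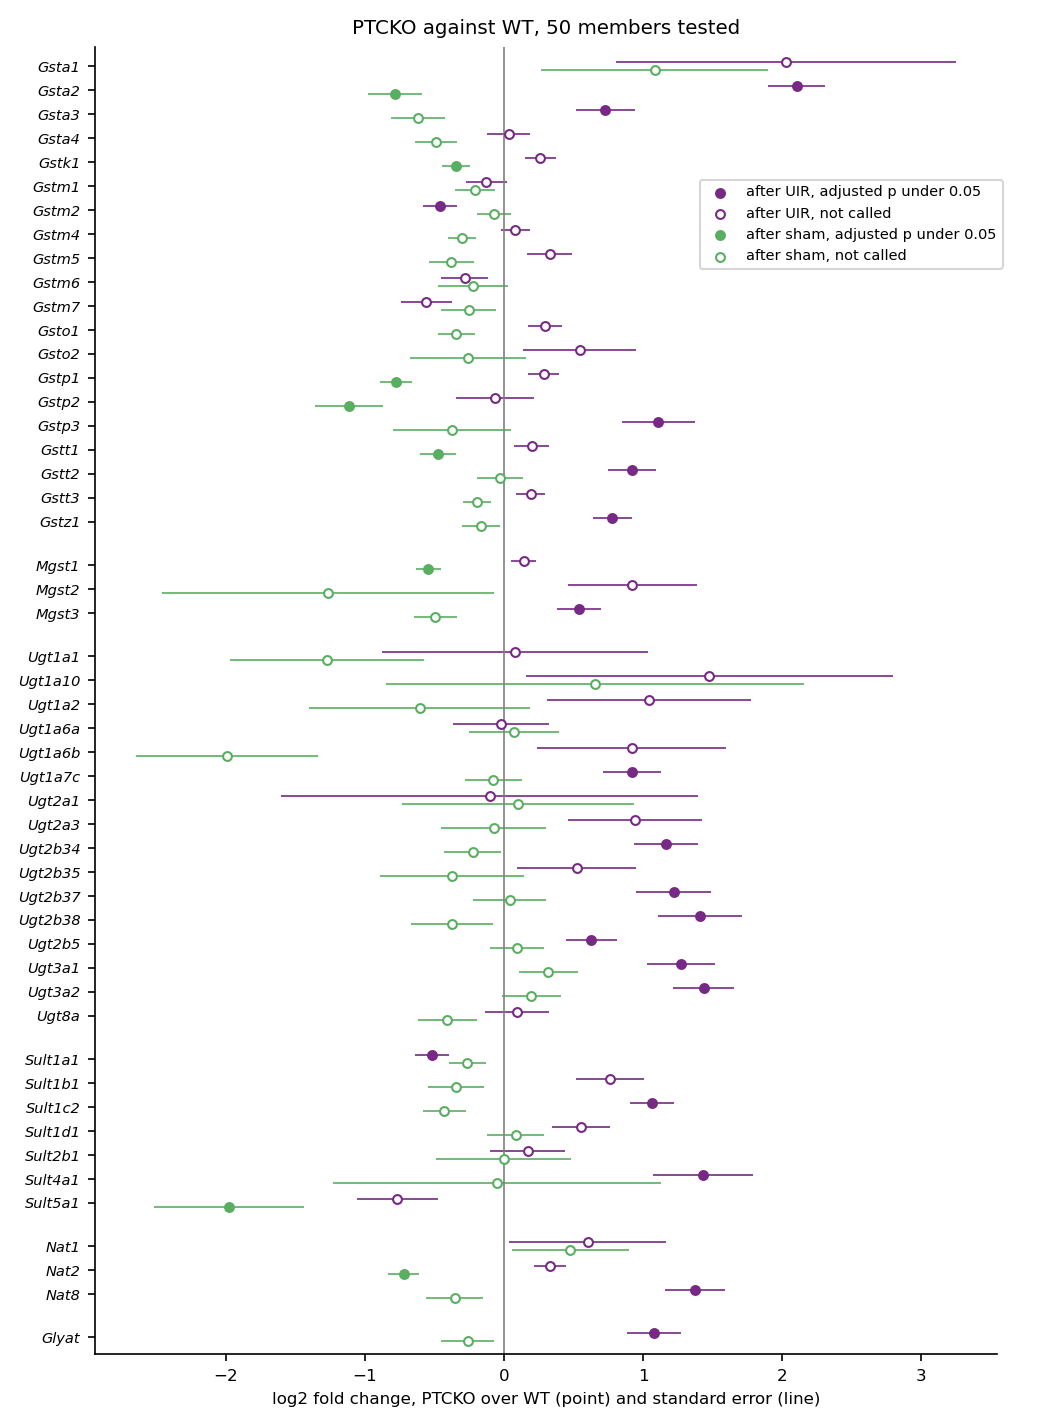
Log2 fold change of PTCKO over WT (x axis) for the 50 tested members by class (y axis), after UIR (purple) and after sham (green). Points are edgeR estimates, lines their SE, and filled points passed an adjusted p under 0.05. Filled purple points lie right of 0 except Gstm2 and Sult1a1, and all 8 filled green points lie left of 0.

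The interaction tested whether the effect of UIR differed between genotypes, as the log2 fold change in PTCKO minus that in WT. It was called and positive for 22 members and negative for none, where 21.5% of all genes tested were called, 14.4% positive and 7.08% negative. Without scaling 17 members were positive and 1 negative, and positive values made up 32.1% of the calls over all genes, against 67% with TMM. By unadjusted p under 0.05 the numbers were 28 and 1, and DESeq2 called 25 and 0. The median over members was 0.95, beside 0.00 for all genes. Of the 22, 21 fell in WT and Gsto1 rose, 13 were also called between genotypes after UIR, and 6 after sham. The interaction uses the same libraries as these comparisons, so such overlap is in part built in. The same joint counts over all genes were not made. The number of positive members was 14 without PTCKO UIR 3 or without WT UIR 1. Calls over all genes, in either direction, went from 3288 to 1743 in each of these fits. Gsta2 had an interaction of 2.89 (SE 0.29, edgeR adjusted p = 0.00128), Nat8 of 1.73 (SE 0.29, edgeR adjusted p = 0.00354), Sult1c2 of 1.49 (SE 0.22, edgeR adjusted p = 0.00229) and Glyat of 1.34 (SE 0.27, edgeR adjusted p = 0.00704). Gstp1 at 1.06, Nat2 at 1.05 and Mgst1 at 0.69 were lower in PTCKO after sham and were not called between genotypes after UIR. Among the proximal tubule markers 12 of 16 were positive and none negative, with a median of 1.29, and their part in the members' values was not tested. Among principal cell markers 4 of 7 were positive and none negative (median 0.84). Among distal convoluted tubule markers 3 of 6 were positive and none negative (median 0.78). The median was -0.42 for the thick ascending limb and -0.205 for the intercalated cell.

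Most genes that supply glutathione, glucuronate, sulfate or acyl-CoA for conjugation fell after UIR as well. The counts that follow stand beside 34.8% of all genes falling and 39.0% rising in PTCKO, 36.4% falling and 42.1% rising in WT, and all 16 proximal tubule markers falling in each. Of 9 genes of glutathione synthesis and recycling, 8 fell and 1 rose in PTCKO (median -2.06) and 8 fell and none rose in WT (median -2.71). Glutathione synthetase Gss averaged 85.7 ± 12.3 FPKM in PTCKO UIR and 204 ± 21.7 in PTCKO sham kidneys, and 43.6 ± 7.57 in WT UIR and 190 ± 12.9 in WT sham. All 7 mercapturate-processing genes fell in each genotype, among them Acy3, an aminoacylase that removes the acetyl group from mercapturates, at 394 ± 113 FPKM in PTCKO UIR and 3638 ± 214 in PTCKO sham kidneys, and 196 ± 54.7 in WT UIR and 4100 ± 262 in WT sham. Between genotypes after UIR, 6 of the 9 and 4 of the 7 were higher in PTCKO and none lower, beside 9.30% of all genes higher and 4.50% lower and 15 of 16 proximal tubule markers higher, whose part in these values was not tested. Ggt1, which cleaves glutathione conjugates, stands in both lists.

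Of 6 genes that supply UDP-glucuronate or remove glucuronides, 5 fell and Gusb, the lysosomal beta-glucuronidase, rose in each genotype. Gusb averaged 46.2 ± 5.75 FPKM in PTCKO UIR and 19.5 ± 3.01 in PTCKO sham kidneys, and 77.2 ± 9.42 in WT UIR and 15.9 ± 1.03 in WT sham, with PTCKO UIR below WT UIR (-0.70 on the log2 scale). Of 9 tested genes of sulfate donor supply and sulfatases, 6 fell and 2 rose in PTCKO, and 6 fell and 1 rose in WT, with the PAPS synthase Papss2 at 18.5 ± 0.806 FPKM in PTCKO UIR and 95.1 ± 3.28 in PTCKO sham kidneys, and 13.2 ± 0.649 in WT UIR and 82.5 ± 10.2 in WT sham. Of 6 tested genes around the acyl-CoA that Glyat uses, 5 fell and Baat rose in PTCKO, and all 6 fell in WT. Acsm2, which activates benzoate and is also in the proximal tubule list, averaged 136 ± 26.2 FPKM in PTCKO UIR and 830 ± 66.1 in PTCKO sham kidneys, and 55.5 ± 23.4 in WT UIR and 755 ± 79.7 in WT sham. Of 10 tested small-molecule methyltransferases, 9 fell and Nnmt, which methylates nicotinamide, rose in each genotype.

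Genes outside the classes that NRF2 is known to induce rose about as often as genes at large and fell more often, by counts with no test. Of 13 tested, 5 rose and 6 fell in PTCKO (median -0.06), and 5 rose and 8 fell in WT (median -0.44), where 39.0% of all genes rose and 34.8% fell in PTCKO, and 42.1% rose and 36.4% fell in WT. Nqo1, a quinone reductase, averaged 7.45 ± 0.958 FPKM in PTCKO UIR and 40.5 ± 0.906 in PTCKO sham kidneys, and 6.24 ± 0.602 in WT UIR and 40.1 ± 0.374 in WT sham. Akr1b8, an aldo-keto reductase, averaged 40.4 ± 6.40 FPKM in PTCKO UIR and 1.54 ± 0.102 in PTCKO sham kidneys, and 31.5 ± 1.72 in WT UIR and 1.38 ± 0.189 in WT sham. After sham 3 of the 13 (Srxn1, Pgd and Cbr1) were lower in PTCKO and none was higher. In that comparison 5.50% of all genes tested were lower and 5.23% higher. Gclc and Gclm are shared with the glutathione list.

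Of 13 tested regulators of conjugation genes, 5 rose and 7 fell in PTCKO and 4 rose and 8 fell in WT, beside the same shares of all genes. Nfe2l2, which encodes NRF2, averaged 67.8 ± 9.84 FPKM in PTCKO UIR and 38.6 ± 2.83 in PTCKO sham kidneys, and 89.4 ± 9.00 in WT UIR and 34.3 ± 2.56 in WT sham. Hnf4a, a regulator of proximal tubule and liver genes that is also in the marker list, averaged 61.5 ± 8.29 FPKM in PTCKO UIR and 224 ± 26.8 in PTCKO sham kidneys, and 32.0 ± 7.64 in WT UIR and 183 ± 19.2 in WT sham. Nr1i2, the xenobiotic receptor PXR, averaged 4.76 ± 0.720 FPKM in PTCKO UIR and 2.03 ± 0.589 in PTCKO sham kidneys, and 1.64 ± 0.289 in WT UIR and 2.55 ± 0.234 in WT sham. It rose in PTCKO (log2 fold change 0.74) and fell in WT (-1.41), with an interaction of 2.15.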

How the data were processed

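Kidney RNA-seq libraries were placed in groups by their titles. Bowtie2, RSEM, DESeq2 and GRCm38.p6 appear, without versions, in the submitters' processing notes. Every gene of the deposited table carries for each library a count, a TPM and an FPKM, per the file headers. Of a library's counts 30.8% to 35.4% were not whole within 1e-06, which is how the deposited expected counts were recognised. The TPM and FPKM columns are the authors' own scaling for length and depth. Strand use in counting and the interval between UIR and collection are not given in the sources used here. RSEM divides reads between similar transcripts, and 16 of 63 members shared over 30% of their 50-base words with other members in GENCODE transcripts (35 shared none).

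Counts were rounded and fitted with edgeR 4.0.16 in R 4.3.3 (filterByExpr, 15322 genes, TMM, 1 coefficient per group, 12 libraries, 8 residual degrees of freedom, quasi-likelihood test, two-sided, Benjamini-Hochberg adjustment over all genes, calls at adjusted p under 0.05). The fit was tried on simulated data for PTCKO against WT after UIR alone, with every group drawn from WT UIR means. That simulation held no difference between UIR and sham, so it did not test the other comparisons or the scaling between surgeries. Comparisons were UIR against sham in each genotype, PTCKO against WT in each surgery, and the interaction. Members, lists and the naming rule (the 4 most abundant per class at 1 FPKM or more, the 4 largest called rises and falls per comparison with a mean of 1 FPKM or more in the higher group, and 8 interaction members by p) were chosen with earlier results of these data known; other members named with values, such as Gsta3, Gstk1, Gsto1, Gstm7 and Ugt1a6b, were chosen after their values were seen. Lists are described by counts. Means are ± SD over 3 libraries; intervals cover counting error only. Alternatives were DESeq2 1.42.0, its size factors, no scaling, no filter, a replicate block, limma 3.58.1 on FPKM or TPM, and leaving out each library. Promoters and positions came from RefSeq tables of GRCm38.p6. Protein identities were not used here, and shared transcript words took their place.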

Additional observations from a re-analysis of the deposited data

Results flagged for a closer look

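The effect of UIR differed between genotypes, by the interaction test of edgeR (adjusted p under 0.05), for 22 members. Each value is the log2 fold change in libraries labelled PTCKO minus that in libraries labelled WT, and all 22 are positive. Among soluble glutathione S-transferases the difference was 2.89 for Gsta2, 1.35 for Gsta3, 1.06 for Gstp1, 0.95 for Gstt2, 0.94 for Gstz1, 0.71 for Gstm5, 0.67 for Gstt1, 0.64 for Gsto1 and 0.61 for Gstk1. Among microsomal forms it was 1.03 for Mgst3 and 0.69 for Mgst1. Among Ugt genes it was 2.91 for Ugt1a6b, 1.78 for Ugt2b38, 1.39 for Ugt2b34, 1.24 for Ugt3a2, 1.18 for Ugt2b37 and 1.00 for Ugt1a7c. Among the rest it was 1.49 for Sult1c2, 1.11 for Sult1b1, 1.73 for Nat8, 1.05 for Nat2 and 1.34 for Glyat.

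Ugt1a6b had the widest spread of these, and its value was 2.02 without PTCKO UIR 1, 4.16 without WT UIR 3 and 2.20 without WT sham 3, the libraries in which it took its 3 largest shares of the Ugt1a sum. Its call was lost without any 1 library except PTCKO UIR 2, WT UIR 3 and WT sham 2. Gstm5, Ugt1a7c and Ugt2b37 also lost their calls when single libraries were left out, with values of 0.52 to 0.78, 0.83 to 1.03 and 0.93 to 1.29 in those cases. So did Gsto1 (0.54 to 0.63), Gstt1 (0.61 to 0.69), Gstk1 (0.53 to 0.55) and Sult1b1 (0.91 to 1.15).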

How the results depend on the processing

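For UIR against sham, the median log2 fold change of all genes was 0.58 in PTCKO and 0.82 in WT without scaling factors, against 0.06 and 0.11 with TMM. On TPM 13 members rose and 22 fell in PTCKO, and 12 rose and 27 fell in WT. Directions turned for Gstm5 in WT (0.10 without scaling, 0.11 with limma on FPKM at each pseudocount and filter, 0.28 on TPM), Mgst1 in WT (0.0133 without scaling, 0.0119 on log2(FPKM + 1) with or without a filter, 0.0121 with a pseudocount of 0.1, 0.18 on TPM), Mgst1 in PTCKO (0.50 without scaling, 0.50 with limma on log2(FPKM + 1) with or without a filter, 0.51 with a pseudocount of 0.1, 0.52 on TPM) and Sult1c2 in PTCKO (0.10 without scaling, 0.0853 on log2(FPKM + 1) with or without a filter, 0.0867 with a pseudocount of 0.1, 0.10 on TPM). With limma on FPKM without a filter 16 members rose in PTCKO. Lower members after UIR numbered 4 with limma on log2(FPKM + 1) and on TPM. Lower members after sham numbered 5 with limma on log2(FPKM + 1), 4 without its filter and 5 on TPM. Positive interactions numbered 14 with limma on FPKM without a filter, and negative ones numbered 1 without scaling, 1 with each limma fit on FPKM and 2 on TPM. The cause was not tested.

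With 1 library left out, 8 to 9 members rose and 27 to 31 fell in PTCKO, 8 to 10 rose and 34 to 36 fell in WT, 10 to 23 were higher and 0 to 3 lower after UIR, 0 to 0 were higher and 3 to 13 lower after sham, and 14 to 26 interactions were positive and 0 to 1 negative. Over all genes, calls between genotypes ran from 904 to 3321 after UIR and from 430 to 2183 after sham, and interaction calls from 1743 to 4565. No pairing by library number was visible: deviations of same-numbered libraries correlated at -0.089 to 0.179, and of differently numbered ones at -0.213 to 0.253. With 3 libraries in a group this cannot exclude pairing. With the replicate block 9 rose and 30 fell in PTCKO, 10 and 36 in WT, 16 were higher and 2 lower after UIR, 0 and 8 after sham, and 22 and 0 in the interaction; of the members' calls, Gsta3 (adjusted p = 0.0569) and Ugt2b5 (0.058) after UIR, Sult5a1 after sham (0.0529) and the interaction of Ugt2b37 (0.059) were no longer made. Members near the count filter, such as Mgst2 and Sult4a1, are limited by depth.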
